A study of Mus musculus with 12 samples.

Results

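Solute carriers are the membrane proteins that move amino acids, sugars, ions, metals, nucleosides, vitamins and the building blocks of metabolism across the cell surface, and across the membranes of mitochondria, lysosomes and the Golgi. The transcripts described here are those whose symbol follows the solute carrier pattern (Slc, a family number, a letter and a member number) and whose mean over 12 libraries reached 5 CPM, the count of a gene divided by the total of its library and scaled to 1000000. Of 23420 gene rows, 357 matched the pattern, 287 of these held at least 1 count, and 148 reached the threshold. Leaving out 7 genes by name (Slc7a2, Slc40a1, Slc11a1, Slc4a1, Slc2a1, Slc2a3 and Slc16a3, of which 6 reached the threshold) left 142 members. Members were thus selected on their mean level over all libraries, tibia and femur alike, so their presence in these cells is a description and is not tested.

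The libraries are bulk RNA-seq of macrophages sorted from bone marrow nucleated cells of 2 mice of C57BL/6 background, numbered 19 and 7, in a study whose title places it in leukaemic marrow. In each mouse the tibias received mesenchymal stromal cells (MSC), and macrophages from them are labelled MSC-educated. The femurs of the same mice were untreated. There are 3 libraries for each bone of each mouse, hence 6 tibia and 6 femur libraries, and single libraries are named by bone, mouse and library number (tibia 19-1). The labels do not say whether the 3 libraries come from separate sorts, so p-values measure the spread between libraries, which may be technical. Treatment goes with the bone in every library, and an effect of MSC and a difference between tibia and femur cannot be told apart. The labels give neither age nor sex, and they do not say what the mice carried besides the strain background.

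Macrophages use these transporters in several ways. They import amino acids through paired light and heavy chains, recover sugars, nucleosides, peptides and metals from digested cells through carriers in the lysosome, and exchange adenine nucleotides, phosphate and acylcarnitines across the inner mitochondrial membrane. Levels of a transporter transcript say nothing directly of transport, which also depends on the protein's location and on its partner chains.

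Total counts ran from 9773455 to 14869150 per library, and the members together took 0.834 to 0.882% of them. All 142 members passed the filter on low counts, and none had a count of 0 in any library. The macrophage marker Csf1r averaged 954 ± 58.1 CPM in tibia libraries and 946 ± 177 CPM in femur libraries (SD, n = 6 each), with a log2 fold change of 0.21 in mouse 19 (edgeR adjusted p = 1.9e-04) and of -0.14 in mouse 7 (adjusted p = 0.0071). Over both mice 3.51% of all tested genes were called higher in tibia and 3.69% lower. These shares stand beside the marker counts that follow, where those are edgeR calls at the adjusted p. No such share was counted for DESeq2 or for an unadjusted p, here or below. Of 10 macrophage markers 2 were called higher in tibia, Mertk among them, and 1 lower (Lyz2). They summed to 15853 to 17710 CPM in tibia and 16308 to 19529 CPM in femur, below the granulocyte precursor sums that follow. Lyz2 alone averaged 13373 CPM in tibia and 14492 CPM in femur. Of 11 granulocyte precursor markers 7 were called higher and 1 lower. The summed granulocyte precursor markers covered 23201 to 37466 CPM in tibia and 22632 to 36466 CPM in femur, with means of 36606 CPM in tibia and 33920 CPM in femur of mouse 19, and of 23888 CPM in tibia and 23529 CPM in femur of mouse 7. Of 7 dendritic markers 3 were called lower in tibia (28.5 to 36.4 CPM summed, against 36.3 to 50.8 CPM in femur). Of 7 eosinophil markers 3 were called lower over both mice and 0 higher (164 to 385 CPM against 175 to 484 CPM). The mice differed in these. In mouse 19, 0 were called higher and 2 lower, and the sums averaged 353 CPM in tibia and 448 CPM in femur. In mouse 7, 2 were called higher and 1 lower, and the sums averaged 192 CPM in tibia and 180 CPM in femur. Of 7 tested erythroid markers 1 was called higher (Tfrc, log2 fold change 0.26) and 1 lower, with a median change of -0.47. The lower one, the beta-globin Beta-s, averaged 21.1 ± 5.34 CPM in tibia and 33.4 ± 8.77 CPM in femur. Its log2 fold change was -0.67 (edgeR adjusted p = 8.5e-05, and 0.0029 on summed counts). Erythroid markers summed to 64.4 to 98.7 CPM in tibia and 61.7 to 115.5 CPM in femur. Hba-a1, Hba-a2, Hbb-b1 and Hbb-b2 were listed at 0 in all libraries. Of 10 mesenchymal stromal markers 5 were tested and 0 were called by edgeR (1 lower by DESeq2 and 1 lower at an unadjusted p under 0.05), and they summed to 11.1 to 13.7 CPM in tibia and 13.1 to 18.6 CPM in femur. Of 6 B lineage markers 1 was called lower, and of 3 megakaryocyte markers 1 was called higher. Of 3 T and NK markers 0 were called by edgeR or DESeq2, with 1 lower at an unadjusted p under 0.05. The part of these cell types in the results below was not tested. In bulk samples fewer cells of a type and less RNA per cell cannot be told apart.

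Ranked per kilobase of coding length, the most abundant member was Slc25a5, the adenine nucleotide translocase ANT2, at 540.6 CPM per kilobase as a mean over 12 libraries. The mitochondrial phosphate carrier Slc25a3 followed at 289 CPM per kilobase, ahead of the small neutral amino acid transporter Slc38a2 at 182, the choline transporter-like protein Slc44a2 at 169, the orphan Slc35e1 at 167, the Golgi GDP-fucose transporter Slc35c1 at 157 and the taurine transporter Slc6a6 at 151 CPM per kilobase. The heme transporter Slc48a1 led the vitamins, cofactors and heme at 147 CPM per kilobase and the copper importer Slc31a1 led the metals at 138. The lysosomal nucleoside transporter Slc29a3 (86.4) led the nucleosides and the lysosomal hexose transporter Slc2a6 (71.9) the sugars, both in CPM per kilobase. Slc16a6 (34.5) led the 3 monocarboxylate members, among which Slc16a3 is not counted since it was left out by name, and Slc17a5 (13.9), the lysosomal sialic acid exporter, led the organic ions. The lowest member was the fatty acid transporter Slc27a1 at 2.69 CPM per kilobase. Per kilobase of exon in place of coding length, Slc39a7, Slc24a6, Slc43a3 and Slc35c2 took the first place in the groups of metals, inorganic ions, nucleosides and nucleotide sugars.

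**Figure D1:**
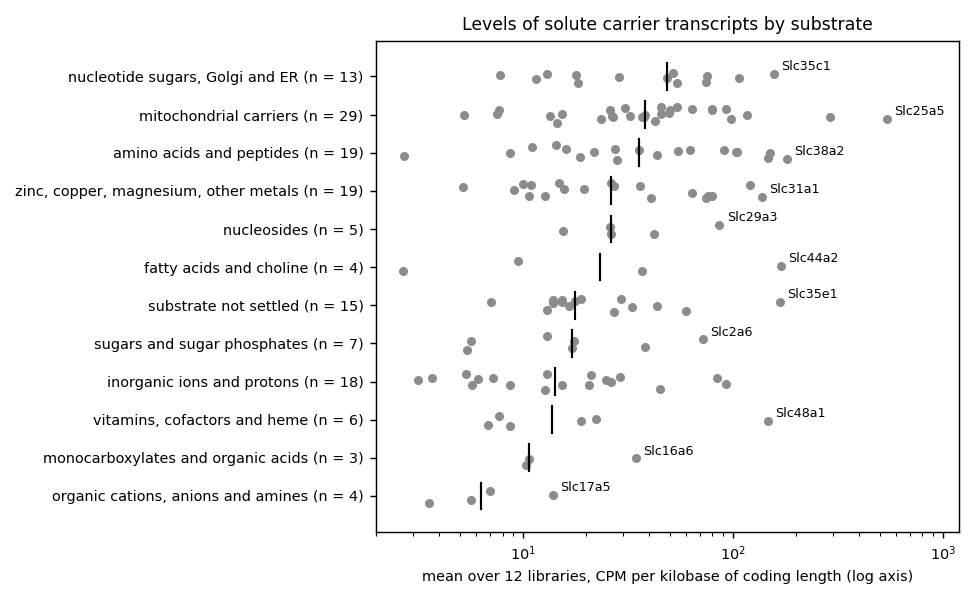
Each point is a member, placed by its mean over 12 libraries in CPM per kilobase of coding length on a log axis, in rows by transported substrate with a bar at each row's median. The points run from 2.69 for Slc27a1 to 540.6 for Slc25a5, and the leading member is named in 11 of the 12 rows.

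The summed level of the members was 8592 ± 100.2 CPM in tibia libraries (8448 to 8717) and 8509 ± 158 CPM in femur libraries (8359 to 8699; SD, n = 6 each), and the ranges, pooled over the 2 mice, overlapped. As a share of total counts, without the library scaling used for the sums, members took 0.8692 to 0.8817% in tibia and 0.8574 to 0.8615% in femur of mouse 7. In mouse 19 they took 0.8401 to 0.8556% in tibia and 0.8341 to 0.8396% in femur. On this unscaled share tibia lay above femur within each mouse, which was not tested. In a quasi-likelihood fit of edgeR over all 11806 tested genes with the mouse as a term, 12 of 142 members passed an adjusted p of 0.05, or 8.45%, where 7.2% of all tested genes did. Of these, 9 were higher in tibia (6.34%, against 3.51% of all tested genes) and 3 were lower (2.11%, against 3.69%). The median log2 fold change, tibia over femur, was 0.02 over members and -0.00 over all tested genes, and the median absolute change was 0.07 and 0.08. The 9 higher members were Slc39a14, Slc37a2, Slc7a5, Slc7a8, Slc3a2, Slc25a20, Slc39a11, Slc25a4 and Slc25a3, and Slc29a1 and Slc15a4 were among the 3 lower members. With counts summed per mouse and bone, so that each bone of each mouse is 1 value, 65 of all tested genes were called (0.551%), 48 higher (0.407%) and 17 lower (0.144%). On these sums 2 members remained, Slc39a14 and Slc37a2, both higher, and 0 members were called lower by edgeR, while 3 were lower at an unadjusted p under 0.05.

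**Figure D2:**
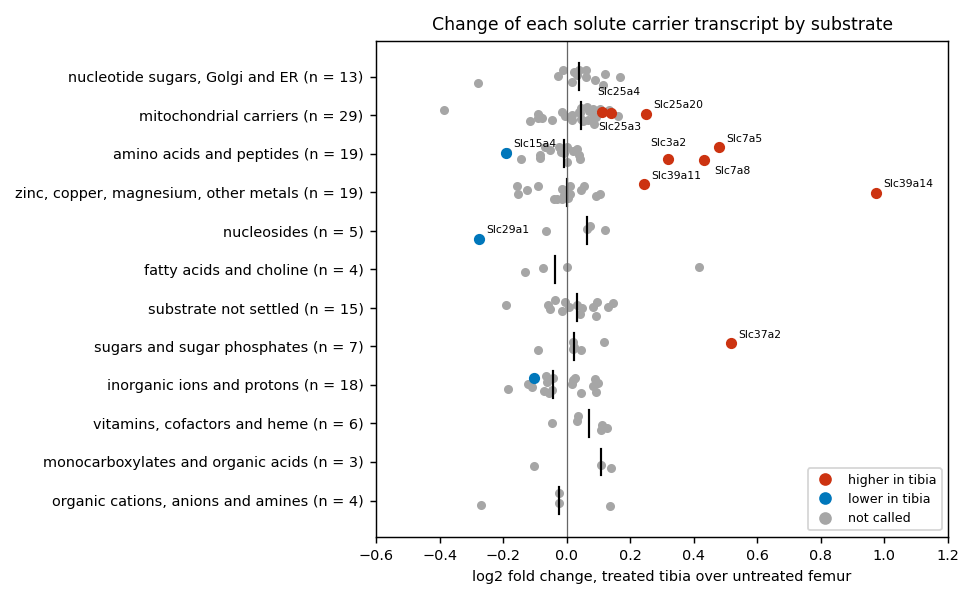
Each point is a member, placed by its log2 fold change, tibia over femur, from the fit over 12 libraries, in rows by transported substrate with a bar at each row's median. The 9 members called higher in tibia are red, the 3 called lower are blue and the rest grey, and most points lie close to 0 while Slc39a14 stands at 0.97.

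Promoter sequences are shown for Slc37a2, 1 of the 2 members called on summed counts, and for Slc3a2 and Slc7a8, a heavy chain and a light chain of the same transporter, so that the letters around a RefSeq start of each gene can be read beside its values. They are the RefSeq windows on build GRCm38.p6, all on the minus strand and written 5′ to 3′, at chr9:37255689-37255988 for Slc37a2, chr19:8713848-8714147 for Slc3a2 and chr14:54781837-54782136 for Slc7a8. The Slc3a2 window lies within the span given for the gene below, at an inner start and not at the outermost one. Capitals mark matches, on either strand, to 7 motif strings searched.
Slc37a2: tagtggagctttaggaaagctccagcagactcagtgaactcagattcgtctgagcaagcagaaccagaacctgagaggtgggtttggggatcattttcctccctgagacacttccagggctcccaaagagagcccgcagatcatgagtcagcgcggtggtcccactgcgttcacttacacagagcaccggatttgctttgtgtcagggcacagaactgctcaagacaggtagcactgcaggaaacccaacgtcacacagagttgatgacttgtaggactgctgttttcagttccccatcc
Slc3a2: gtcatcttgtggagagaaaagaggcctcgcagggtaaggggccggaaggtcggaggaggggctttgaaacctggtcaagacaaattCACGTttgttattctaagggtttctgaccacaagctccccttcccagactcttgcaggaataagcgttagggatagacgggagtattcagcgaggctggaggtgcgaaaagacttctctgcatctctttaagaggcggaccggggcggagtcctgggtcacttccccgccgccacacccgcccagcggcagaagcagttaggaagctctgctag
Slc7a8: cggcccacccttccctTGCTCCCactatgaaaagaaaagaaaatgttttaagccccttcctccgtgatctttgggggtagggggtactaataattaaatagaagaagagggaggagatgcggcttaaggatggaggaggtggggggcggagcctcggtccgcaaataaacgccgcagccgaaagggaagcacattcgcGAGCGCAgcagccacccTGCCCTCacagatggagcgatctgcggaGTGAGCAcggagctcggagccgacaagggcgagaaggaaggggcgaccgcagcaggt
The strings were TGACNNNGC (antioxidant response core), TGATGNAA (amino acid response core), TGCNCNC (metal response core), TCACGTGA (lysosomal gene E-box), ACGTG (hypoxia response core), TCACNCCAC (sterol regulatory element) and GAGGAAGT (PU.1 core). Their letters occur in 12.4%, 3.97%, 51%, 0.974%, 19.6%, 1.24% and 3.2% of 32851 mouse promoter windows, in that order. A TCACGTGA match also holds ACGTG. The Slc3a2 window holds 1 match to ACGTG, the Slc7a8 window 4 matches to TGCNCNC, and the Slc37a2 window none of the 7 strings. The matches are a description of letters, and the files hold no data on binding at these windows. A RefSeq window was found for 9 of the 12 called members and for 107 of the 142 members.

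Among the 19 transporters of amino acids and peptides, 4 were called over both mice, of which 3 encode a heavy chain and light chains that work together. Slc3a2 encodes the CD98 heavy chain, which brings light chains to the cell surface, and Slc7a5 (LAT1) and Slc7a8 (LAT2) encode light chains that exchange large neutral amino acids. All 3 rose over both mice, with Slc7a8 called in mouse 19 and not in mouse 7 and Slc7a5 in mouse 7 and not in mouse 19, and none of the 3 was called on summed counts. Slc15a4 fell, and the other 15 were not called. Their summed level was 1818 ± 96.6 CPM in tibia and 1821 ± 118.0 CPM in femur (SD, n = 6 each), and 9 of 19 changes were positive.

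Slc3a2 (19:8706882-8723369, GENCODE vM21 on GRCm38) had 65.1, 78.3 and 65.9 CPM in tibias of mouse 19 and 64.2, 66.1 and 64.4 CPM in tibias of mouse 7, against 55.4, 52.8 and 55.6 CPM in femurs of mouse 19 and 54.8, 51.0 and 54.0 CPM in femurs of mouse 7. Every tibia library lay above every femur library of either mouse. Its log2 fold change was 0.32 ± 0.05 (SE) with an edgeR adjusted p of 1.7e-04, and it was 0.35 in mouse 19 (adjusted p = 9.3e-04) and 0.29 in mouse 7 (adjusted p = 0.0049). On summed counts the adjusted p of edgeR was 0.0545. The call held in the fit over 12 libraries without any 1 library.

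Slc7a5 (8:121881150-121907694) had 28.2, 34.5 and 36.4 CPM in tibias of mouse 19 and 20.9, 25.3 and 24.2 CPM in tibias of mouse 7, against 32.0, 24.0 and 25.5 CPM in femurs of mouse 19 and 15.8, 13.6 and 13.8 CPM in femurs of mouse 7. The tibia libraries of mouse 7 all lay above its femur libraries, while the bones overlapped in mouse 19 and femurs of mouse 19 reached tibia levels of mouse 7. Over both mice the log2 fold change was 0.48 ± 0.09 (edgeR adjusted p = 0.0020), with 0.29 in mouse 19 (adjusted p = 0.138) and 0.70 in mouse 7 (adjusted p = 1.8e-04). The difference between the mice was -0.42 on the log2 scale and was not called (edgeR adjusted p = 0.169). On summed counts the adjusted p was 0.0794.

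Slc7a8 (14:54722209-54781946) had 30.0, 26.1 and 30.4 CPM in tibias of mouse 19 and 24.4, 25.6 and 22.1 CPM in tibias of mouse 7, against 17.9, 17.0 and 15.9 CPM in femurs of mouse 19 and 21.5, 22.6 and 22.7 CPM in femurs of mouse 7. The bones were apart in mouse 19 and overlapped in mouse 7. Over both mice Slc7a8 had a log2 fold change of 0.43 ± 0.10 (edgeR adjusted p = 0.0059), made of 0.77 in mouse 19 (adjusted p = 1.7e-06) and 0.11 in mouse 7 (adjusted p = 0.536). The difference of 0.67 ± 0.14 was itself called (edgeR adjusted p = 0.0021), so the value over both mice is an average of unlike changes. On summed counts the adjusted p was 0.242.

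A further light chain of Slc3a2 lies below the threshold. Slc7a11, which exchanges cystine for glutamate, averaged 4.62 ± 1.78 CPM in tibia and 2.78 ± 0.39 CPM in femur (SD, n = 6 each), a log2 fold change of 0.68 ± 0.19 (edgeR adjusted p = 0.0323, and 0.350 on summed counts). The change was 1.12 in mouse 19 (edgeR adjusted p = 0.0034) and 0.19 in mouse 7 (adjusted p = 0.708), and the difference between the mice was not called (adjusted p = 0.148). It was chosen after its values were seen, as the 1 row called among 46 tested rows of the symbol pattern below the threshold. Those 46 do not hold the genes left out by name. Of the latter, Slc4a1 (log2 fold change -0.79) and Slc2a3 (-0.17) were called lower in tibia (edgeR adjusted p = 0.0014 and 0.0319, and 0.0839 and 0.313 on summed counts). The light chains Slc7a7 and Slc7a6, which exchange cationic for neutral amino acids, were not called. Slc7a7 averaged 43.4 ± 2.40 CPM in tibia and 42.2 ± 3.26 CPM in femur, and Slc7a6 averaged 15.9 ± 1.66 CPM in tibia and 18.1 ± 1.64 CPM in femur.

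Slc15a4 (5:127595664-127632897) exports histidine and small peptides from the endolysosome and is known for its part in signalling by endosomal Toll-like receptors. It had 97.8, 89.6 and 95.1 CPM in tibias of mouse 19 and 99.96, 107 and 115 CPM in tibias of mouse 7, against 109.9, 107 and 97.2 CPM in femurs of mouse 19 and 127, 122 and 129 CPM in femurs of mouse 7. All 6 tibia libraries lay below the femur mean of their own mouse, with the bones apart in mouse 7 and overlapping in mouse 19. Its log2 fold change was -0.19 ± 0.04 (edgeR adjusted p = 0.0072), with -0.15 in mouse 19 (adjusted p = 0.165) and -0.23 in mouse 7 (adjusted p = 0.0083). On summed counts the adjusted p was 0.257.

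Slc38a2 and Slc6a6, the most abundant amino acid carriers, and the less abundant Slc1a5 did not pass the test. Slc38a2, a sodium-coupled carrier of small neutral amino acids, averaged 270.1 ± 26.4 CPM in tibia and 279.6 ± 19.0 CPM in femur. Slc6a6 averaged 284 ± 9.20 CPM in tibia and 279.6 ± 4.77 CPM in femur (SD, n = 6 each), and its coefficient of variation over the 12 libraries, 2.59%, was the lowest of the members, whose median was 9.57%. The glutamine carrier Slc1a5 averaged 88.8 ± 5.82 CPM in tibia and 94.4 ± 6.86 CPM in femur. None of these 3 was called (edgeR adjusted p = 0.404 for Slc38a2, 0.770 for Slc6a6 and 0.357 for Slc1a5).

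**Figure D3:**
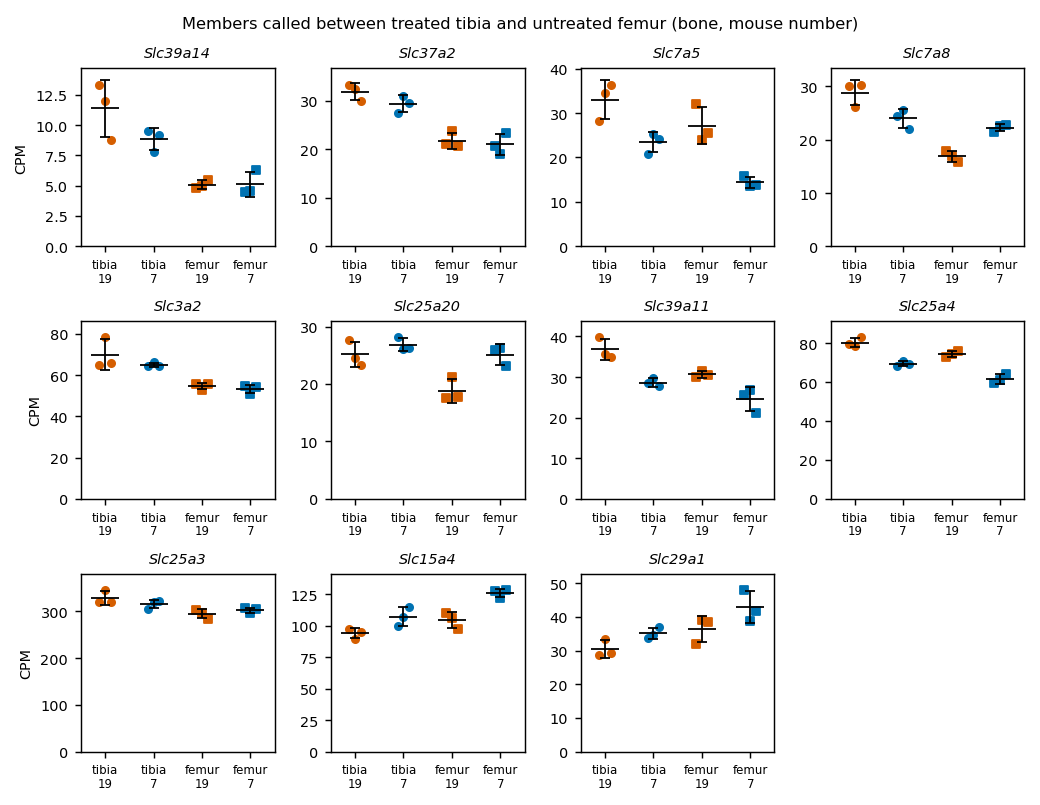
Each panel shows 1 of 11 called members in CPM, with 1 point for each library in the tibias of mice 19 and 7 and the femurs of mice 19 and 7, and a bar with whiskers for the mean and SD of 3 libraries. Slc39a14, Slc37a2 and Slc3a2 have every tibia library above every femur library, while the Slc25a3 and Slc25a4 panels show small shifts.

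Of 7 sugar and sugar phosphate transporters, 1 rose. Slc37a2 (9:37227585-37255738), a sugar phosphate exchanger of internal membranes that is known for its high level in macrophages and osteoclasts, had 33.3, 32.4 and 30.0 CPM in tibias of mouse 19 and 27.5, 31.0 and 29.6 CPM in tibias of mouse 7. The femurs had 21.1, 23.7 and 20.6 CPM in mouse 19 and 20.8, 18.9 and 23.3 CPM in mouse 7. The lowest tibia library stood above the highest femur library. The means were 30.6 ± 2.08 CPM in tibia and 21.4 ± 1.79 CPM in femur (SD, n = 6 each), a log2 fold change of 0.52 ± 0.07 (edgeR adjusted p = 2.0e-05). The change was 0.55 in mouse 19 (adjusted p = 2.4e-04) and 0.49 in mouse 7 (adjusted p = 8.1e-04). The call on summed counts (edgeR adjusted p = 0.0196) was lost without tibia 7-3 (0.207), tibia 19-2 (0.226), femur 7-2 (0.128) or femur 7-3 (0.0688). The lysosomal hexose transporter Slc2a6 averaged 109 ± 7.11 CPM in tibia and 106 ± 12.2 CPM in femur and was not called.

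Of 19 transporters of zinc, copper, magnesium and other metals, 2 rose, both of the ZIP family, whose members bring zinc and related metals into the cytosol. The other 17 were not called. Slc39a14 (ZIP14, 14:70303469-70351425), which carries zinc, manganese and iron not bound to transferrin, had 13.3, 11.96 and 8.80 CPM in tibias of mouse 19 and 9.49, 7.79 and 9.19 CPM in tibias of mouse 7, against 4.83, 4.94 and 5.50 CPM in femurs of mouse 19 and 4.46, 4.56 and 6.29 CPM in femurs of mouse 7. All 6 tibia libraries lay above all 6 femur libraries. The means were 10.1 ± 2.10 CPM in tibia and 5.10 ± 0.688 CPM in femur (SD, n = 6 each), and the log2 fold change of 0.97 ± 0.13 (edgeR adjusted p = 4.8e-05) was the largest among the members. It was 1.16 in mouse 19 (adjusted p = 7.5e-05) and 0.79 in mouse 7 (adjusted p = 0.0049). The gene is read at low depth, with a lowest count of 47 in a library, and its coefficient of variation over the 12 libraries, 39.6%, was the highest of the members. The call on summed counts (edgeR adjusted p = 0.0157) was lost without tibia 7-1 (0.0699), tibia 7-3 (0.239), tibia 19-2 (0.226) or femur 7-2 (0.123).

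Slc39a11 (ZIP11) had 39.8, 35.7 and 34.97 CPM in tibias of mouse 19 and 28.5, 29.7 and 27.7 CPM in tibias of mouse 7, against 29.9, 31.6 and 30.5 CPM in femurs of mouse 19 and 25.7, 26.8 and 21.1 CPM in femurs of mouse 7. Tibia lay above femur within each mouse, while the tibias of mouse 7 lay below the femurs of mouse 19. Over both mice Slc39a11 had a log2 fold change of 0.24 ± 0.06 (edgeR adjusted p = 0.0177, and 0.278 on summed counts), and the adjusted p passed 0.05 without tibia 19-1 (0.052). Within single mice the changes of 0.27 in mouse 19 and 0.22 in mouse 7 were not called (adjusted p = 0.071 and 0.120).

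Beside the metal carriers, the metallothionein Mt1, a cytosolic buffer of zinc and copper, averaged 26.4 ± 2.67 CPM in tibia and 18.2 ± 2.53 CPM in femur (SD, n = 6 each). Its log2 fold change was 0.55 ± 0.09 (edgeR adjusted p = 3.0e-04, and 0.0196 on summed counts), and it was the 1 gene called among 4 tested genes of zinc buffering. The zinc exporter of the cell surface, Slc30a1, averaged 29.0 ± 3.62 CPM in tibia and 29.9 ± 0.979 CPM in femur and was not called (edgeR adjusted p = 0.800). The copper importer Slc31a1 averaged 82.3 ± 1.95 CPM in tibia and 79.9 ± 4.88 CPM in femur and was not called (edgeR adjusted p = 0.552).

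The 29 members of the mitochondrial carrier family form the largest group, and 3 of them rose by small amounts. None was called lower by edgeR or by DESeq2, and 1 was lower at an unadjusted p under 0.05. Of their 29 changes 20 were positive, with a median log2 fold change of 0.04 against -0.00 over all tested genes. Their summed level was 2071 ± 42.4 CPM in tibia (2037 to 2156) and 1994 ± 40.6 CPM in femur (1945 to 2045; SD, n = 6 each). The ranges of the sums overlapped.

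Slc25a20 exchanges carnitine for acylcarnitines and so admits long-chain fatty acids to oxidation. It had 27.6, 24.6 and 23.3 CPM in tibias of mouse 19 and 28.2, 26.1 and 26.3 CPM in tibias of mouse 7, against 17.6, 21.2 and 17.7 CPM in femurs of mouse 19 and 26.0, 26.3 and 23.1 CPM in femurs of mouse 7. The bones were apart in mouse 19 and overlapped in mouse 7. Over both mice this gave a log2 fold change of 0.25 ± 0.08 (edgeR adjusted p = 0.0485), with 0.42 in mouse 19 (adjusted p = 0.010) and 0.09 in mouse 7 (adjusted p = 0.609).

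The adenine nucleotide translocase Slc25a4 (ANT1), which exchanges ATP for ADP, had 79.4, 78.4 and 83.1 CPM in tibias of mouse 19 and 68.1, 70.7 and 69.2 CPM in tibias of mouse 7, against 72.8, 74.4 and 75.9 CPM in femurs of mouse 19 and 59.4, 61.3 and 64.1 CPM in femurs of mouse 7. Its log2 fold change was 0.14 ± 0.04 (edgeR adjusted p = 0.0334). Tibia lay above femur within each mouse, and both bones stood higher in mouse 19. Slc25a3, which brings phosphate into the matrix, averaged 322 ± 13.1 CPM in tibia and 299 ± 8.04 CPM in femur (SD, n = 6 each), a log2 fold change of 0.11 ± 0.03 (edgeR adjusted p = 0.0380). These 3 calls were lost without any 1 of 8 libraries for Slc25a20 (adjusted p up to 0.125), of 8 for Slc25a4 (up to 0.0866) and of 7 for Slc25a3 (up to 0.100), and on summed counts their adjusted p was 0.406, 0.458 and 0.518. The sister translocase Slc25a5 averaged 499 ± 18.3 CPM in tibia and 468 ± 19.2 CPM in femur and was not called over both mice (edgeR adjusted p = 0.0605). Translocase and phosphate carrier genes have near-identical copies in the genome, between which reads can be split, so their levels are uncertain.

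Of 5 members placed in the nucleoside group 1 fell. Slc29a1 (ENT1), the equilibrative nucleoside transporter of the cell surface, had 28.8, 33.5 and 29.2 CPM in tibias of mouse 19 and 33.7, 34.7 and 36.9 CPM in tibias of mouse 7, against 32.0, 39.0 and 38.4 CPM in femurs of mouse 19 and 48.1, 38.8 and 41.7 CPM in femurs of mouse 7. The bones were apart in mouse 7 and overlapped in mouse 19. The log2 fold change was -0.28 ± 0.06 (edgeR adjusted p = 0.0092, and 0.160 on summed counts), with -0.27 in mouse 19 (adjusted p = 0.0899) and -0.28 in mouse 7 (adjusted p = 0.0338). The lysosomal nucleoside transporter Slc29a3, more abundant than Slc29a1 per kilobase of coding length (86.4 against 26.2 CPM per kilobase), averaged 126 ± 11.7 CPM in tibia and 120.0 ± 8.40 CPM in femur and was not called (edgeR adjusted p = 0.389).

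Of 18 carriers of inorganic ions and protons 0 were called higher by edgeR, by DESeq2 or at an unadjusted p under 0.05, and 1 was called lower. Their summed level was 1069 ± 49.2 CPM in tibia (989 to 1129) and 1109 ± 52.4 CPM in femur (1061 to 1167; SD, n = 6 each), and the ranges overlapped.

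Across all substrates, 1 member had all tibia libraries below all femur libraries of the same mouse in both mice, an order shared by 2.75% of all tested genes. In the opposite order, with all tibia libraries above all femur libraries of the same mouse in both mice, stood 5 members (Slc3a2, Slc25a4, Slc37a2, Slc39a11 and Slc39a14), or 3.52%, where 2.45% of all tested genes did.

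In 6 groups no member was called over both mice by edgeR. These were the 13 transporters of nucleotide sugars and other Golgi and endoplasmic reticulum cargo, the 15 members whose substrate is not settled, the 6 of vitamins, cofactors and heme, the 4 of fatty acids and choline, the 4 of organic cations, anions and amines, and the 3 of monocarboxylates. At an unadjusted p under 0.05 the counts, higher and lower in tibia, were 1 and 1 for nucleotide sugars, 1 and 1 for unsettled substrates, 1 and 0 for vitamins, 1 and 1 for fatty acids and choline, 0 and 0 for organic ions and 1 and 0 for monocarboxylates. DESeq2 called 1 member of these groups, lower, among the carriers of fatty acids and choline. Over all 142 members the counts, higher and lower, were 17 and 12 at an unadjusted p under 0.05 and 10 and 4 by DESeq2. Slc35c1, which supplies GDP-fucose to the Golgi for fucosylation, averaged 172 ± 11.1 CPM in tibia and 169.5 ± 5.88 CPM in femur. Slc48a1, which returns heme from the phagolysosome to the cytosol, averaged 67.4 ± 7.66 CPM in tibia and 61.8 ± 5.09 CPM in femur (SD, n = 6 each; edgeR adjusted p = 0.161). In the monocarboxylate group, Slc16a1 averaged 15.8 ± 2.36 CPM in tibia and 14.7 ± 2.40 CPM in femur, and Slc16a6 averaged 65.8 ± 7.01 CPM in tibia and 59.9 ± 9.34 CPM in femur. The choline transporter-like Slc44a2 averaged 348 ± 8.39 CPM in tibia and 367 ± 5.59 CPM in femur (edgeR adjusted p = 0.108).

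The changes were also tested within each mouse. In mouse 19, 10 members were called, where 5.17% of all tested genes were: 9 members were higher in tibia, where 2.96% of all tested genes were, and 1 was lower, where 2.21% of all tested genes were. In mouse 7, 14 members were called, where 9.73% of all tested genes were: 8 members were higher (4.37% of all tested genes) and 6 were lower (5.36%). Called in mouse 19 but not over both mice were Slc37a3 (0.38, adjusted p = 0.0136), Slc39a1 (0.22, adjusted p = 0.0277), a zinc importer of the cell surface, and Slc16a6 (0.21, adjusted p = 0.0405), whose exons overlap a gene on the opposite strand, all higher, and Slc7a1, lower. Called in mouse 7 but not over both mice were Slc25a5 (0.13, adjusted p = 0.0275), the ATP-magnesium and phosphate exchanger Slc25a24 (0.16, adjusted p = 0.0348), Slc25a10 and Slc7a1, all higher, and the sodium-calcium exchanger Slc8a1 (-0.24, adjusted p = 0.0169), Slc44a2 (-0.11, adjusted p = 0.0450), Slc44a1 and Slc28a2, all lower. These values are log2 fold changes with edgeR adjusted p. Each of these calls was lost without at least 1 library, Slc44a2 without any 1 of the 12.

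The test of the difference between the mice, the change in mouse 19 minus the change in mouse 7, called 7 members, or 4.93%, where 4.74% of all tested genes were called (5 members and 2.89% upward, 2 members and 1.85% downward). These were Slc7a8, described above, and Slc28a2, Slc44a1, Slc37a3, Slc15a3, Slc25a10 and Slc7a1. Of the 10 macrophage markers, 6 were called higher in tibia in mouse 19, and 2 were called higher and 3 lower in mouse 7. Emr1 had a log2 fold change of 0.12 in mouse 19 (edgeR adjusted p = 0.0741) and of -0.22 in mouse 7 (adjusted p = 3.2e-04). The part of these markers in the differences below was not tested.

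Slc7a1 (CAT1), the importer of arginine and other cationic amino acids, had 36.8, 36.0 and 40.5 CPM in tibias and 42.9, 47.2 and 46.5 CPM in femurs of mouse 19, and 43.4, 43.0 and 42.9 CPM in tibias and 36.9, 35.3 and 37.9 CPM in femurs of mouse 7. The bones were apart in both mice, in opposite orders. The log2 fold change was -0.27 in mouse 19 (edgeR adjusted p = 0.0181) and 0.23 in mouse 7 (adjusted p = 0.0323), a difference of -0.51 ± 0.10 (adjusted p = 0.0016).

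Slc28a2, which concentrates purine nucleosides with sodium, had 57.5, 53.9 and 50.6 CPM in tibias and 43.1, 48.8 and 48.6 CPM in femurs of mouse 19, and 45.5, 51.1 and 42.0 CPM in tibias and 57.9, 61.0 and 54.6 CPM in femurs of mouse 7. Tibia was the higher bone in mouse 19 and the lower one in mouse 7. The log2 fold change was 0.20 in mouse 19 (edgeR adjusted p = 0.130) and -0.32 in mouse 7 (adjusted p = 0.0045), a difference of 0.53 ± 0.11 (adjusted p = 0.0019).

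Slc15a3, the lysosomal relative of Slc15a4, had 71.7, 75.2 and 73.9 CPM in tibias and 66.8, 67.2 and 64.0 CPM in femurs of mouse 19, and 74.7, 75.4 and 78.7 CPM in tibias and 86.8, 83.4 and 83.4 CPM in femurs of mouse 7. The tibias of the mice lay close together, between femurs that were low in mouse 19 and high in mouse 7. Its changes of 0.16 in mouse 19 and -0.15 in mouse 7 were not called alone (edgeR adjusted p = 0.107 and 0.0848), while their difference of 0.31 ± 0.08 was (adjusted p = 0.0169).

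The choline transporter Slc44a1 had 22.9, 19.2 and 17.8 CPM in tibias and 19.9, 18.2 and 14.9 CPM in femurs of mouse 19, and 18.6, 18.1 and 19.9 CPM in tibias and 27.4, 22.9 and 25.7 CPM in femurs of mouse 7 (difference 0.61 ± 0.16, edgeR adjusted p = 0.0218). The femurs of mouse 7 stood above the other libraries except 1 tibia library of mouse 19 at the level of the lowest of them. The mitochondrial dicarboxylate carrier Slc25a10 had 33.7, 37.2 and 31.5 CPM in tibias and 34.4, 38.7 and 37.3 CPM in femurs of mouse 19, and 32.0, 36.3 and 30.3 CPM in tibias and 27.4, 25.7 and 27.8 CPM in femurs of mouse 7 (difference -0.40 ± 0.12, edgeR adjusted p = 0.0496). Here the femurs of mouse 7 were the lowest libraries. Slc37a3, a relative of Slc37a2 whose substrate is not settled, had 24.1, 25.05 and 27.1 CPM in tibias and 19.5, 18.6 and 20.3 CPM in femurs of mouse 19, and 21.4, 22.1 and 24.3 CPM in tibias and 22.8, 25.7 and 22.8 CPM in femurs of mouse 7 (difference 0.46 ± 0.13, edgeR adjusted p = 0.0400). Its low libraries were the femurs of mouse 19. The calls for Slc7a1, Slc7a8 and Slc28a2 held without any 1 library, and those for Slc15a3, Slc44a1, Slc25a10 and Slc37a3 were lost without 2, 4, 9 and 9 single libraries, with adjusted p up to 0.0612, 0.108, 0.188 and 0.125.

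**Figure D4:**
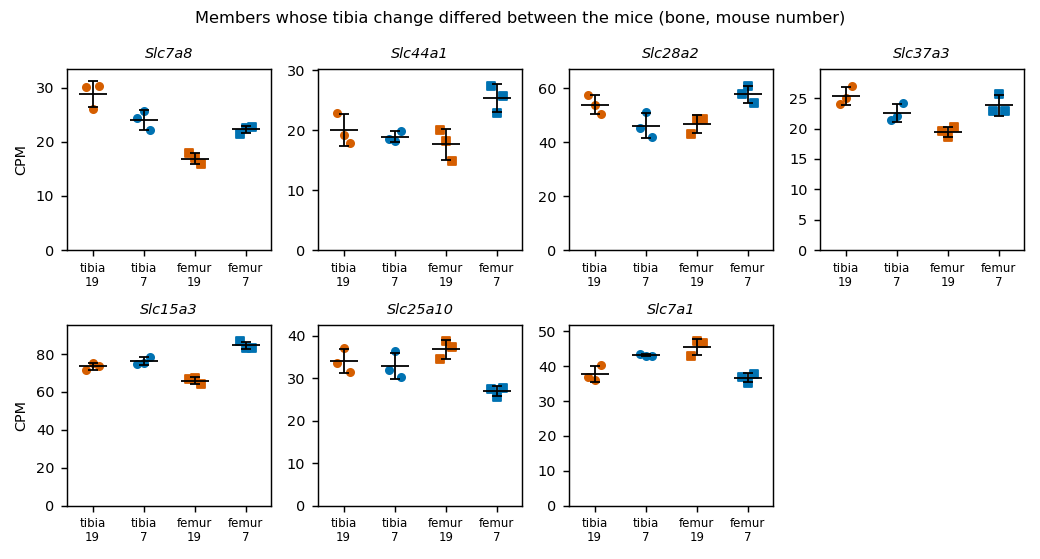
Each panel shows, in CPM, a member whose change from femur to tibia differed between the mice, with 1 point for each library in the tibias of mice 19 and 7 and the femurs of mice 19 and 7, and a bar with whiskers for the mean and SD of 3 libraries. In Slc15a3 the tibias of both mice lie between 71.7 and 78.7 CPM, above the femurs of mouse 19 and below the femurs of mouse 7.

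Among the members, the femurs differed more between the animals than the tibias did, as a description with no test. The mean of mouse 19 differed from that of mouse 7 by at least 1.2-fold, up or down, for 48 of 142 members in femur and for 19 in tibia. By the same measure tibia differed from femur for 15 members in mouse 19 and for 12 in mouse 7. The sodium-potassium-chloride cotransporter Slc12a2 stood lower in mouse 19 in both bones. In tibias it had 9.84, 8.03 and 5.90 CPM in mouse 19 and 14.0, 14.5 and 11.9 CPM in mouse 7. In femurs it had 7.40, 8.05 and 9.20 CPM in mouse 19 and 17.5, 17.4 and 14.4 CPM in mouse 7. Slc12a2 was not called between bones (edgeR adjusted p = 0.364). In 9 members the highest library was at least 2 times the lowest. These counts were not made over all tested genes, so whether they are particular to the members was not tested.

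**Figure D5:**
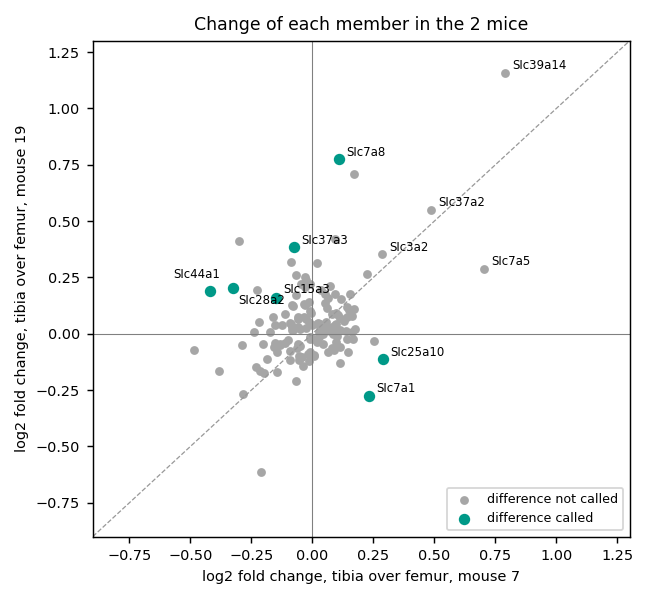
Each point is a member, placed by its log2 fold change, tibia over femur, in mouse 7 on the x axis and in mouse 19 on the y axis, with a dashed line of equal change. Slc39a14, Slc37a2 and Slc3a2 lie up and to the right in both mice, and the 7 members whose difference was called are green.

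Related gene lists give the surroundings of these transporters, as counts called over both mice among the genes tested. Of all tested genes 3.51% were higher and 3.69% lower by edgeR at the adjusted p. These shares do not apply to the counts by DESeq2 or at an unadjusted p, for which none was counted. Of 17 NRF2 targets and genes of glutathione synthesis 5 were higher in tibia and 0 lower by edgeR (7 and 0 by DESeq2, and 8 and 0 at an unadjusted p under 0.05), and the adjusted p of these 5 on summed counts ran from 0.100 to 0.351. Gclm, a subunit of the enzyme that starts glutathione synthesis, averaged 48.3 ± 5.18 CPM in tibia and 38.3 ± 7.35 CPM in femur, a log2 fold change of 0.34 ± 0.05 (edgeR adjusted p = 2.8e-04). Thioredoxin Txn1 rose by 0.21 and heme oxygenase Hmox1 by 0.32 on the log2 scale (edgeR adjusted p = 2.9e-04 and 0.0011). Hmox1 had a log2 fold change of 0.55 in mouse 19 (edgeR adjusted p = 3.4e-09) and of 0.10 in mouse 7 (adjusted p = 0.238). Of 19 targets of ATF4, the factor of the amino acid response, 2 were higher, the serine synthesis enzyme Phgdh (0.44, adjusted p = 0.0151) and the alanyl-tRNA synthetase Aars (0.14, adjusted p = 0.0462), and 0 lower, also at an unadjusted p and by DESeq2. On summed counts neither was called (adjusted p = 0.249 and 0.451), and Phgdh had a change of 0.13 in mouse 19 (edgeR adjusted p = 0.647) and of 0.76 in mouse 7 (adjusted p = 1.7e-04). Psat1, a further enzyme of serine synthesis, was called in both mice in opposite directions, with -0.27 in mouse 19 (edgeR adjusted p = 0.0047) and 0.22 in mouse 7 (adjusted p = 0.0160).

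Of 31 ABC transporters, which pump substrates at the cost of ATP, 3 were higher and 5 lower, led by Abca9 (log2 fold change -0.38), Abcc3 (0.56) and Abca2 (-0.23; edgeR adjusted p = 5.7e-05, 3.2e-04 and 0.0020, and 0.0592, 0.0387 and 0.167 on summed counts). Of 14 ion pumping ATPases 0 were higher and 2 lower, the plasma membrane calcium pump Atp2b1 (-0.14, edgeR adjusted p = 0.0130, and 0.364 on summed counts) among them, with 1 higher at an unadjusted p and 0 by DESeq2. Of 21 transporters of the major facilitator class outside the Slc symbols 1 was higher, Mfsd10 (0.17, edgeR adjusted p = 0.0220, and 0.397 on summed counts). No gene was called by edgeR among 8 subunits and chaperones of transporters, 25 genes of amino acid sensing at the lysosome, 8 genes of mitochondrial pyruvate and calcium entry and 4 organic anion transporting polypeptides. At an unadjusted p under 0.05 the counts of these lists, higher and lower, were 1 and 0, 1 and 4, 1 and 0 and 0 and 0, and DESeq2 called 1, 0, 1 and 0 genes.

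The 7 granulocyte precursor markers called higher changed by 0.14 to 0.53 on the log2 scale, in the same fit as the transporters above. Among them Ctsg changed by 0.48, Camp by 0.23, S100a8 by 0.19 and Lcn2 by 0.14 (edgeR adjusted p = 0.0059, 0.0034, 0.0016 and 0.0129, and 0.169, 0.114, 0.217 and 0.413 on summed counts). The primary granule genes Mpo, Elane and Prtn3 changed by 0.53, 0.51 and 0.44 on the log2 scale (edgeR adjusted p = 6.1e-04, 9.6e-05 and 3.6e-05), while the chitinase-like gene Chi3l3 changed by -0.20 (adjusted p = 9.7e-06). On summed counts the edgeR adjusted p was 0.0545 for Mpo, 0.0089 for Elane, 0.0378 for Prtn3 and 0.196 for Chi3l3. Of the macrophage markers, Mertk changed by 1.01 (edgeR adjusted p = 2.9e-05, and 0.0163 on summed counts) and Lyz2 by -0.11 (adjusted p = 0.0056, and 0.541 on summed counts). The part of these genes' cells in the changes of the transporters was not tested.

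Near the threshold of 5 CPM the levels were continuous. Just inside stood Slc25a27 at 5.05 CPM (4.43 in tibia and 5.67 in femur), Slc27a1 at 5.22 CPM (5.98 and 4.47) and the vesicular monoamine transporter Slc18a2 at 5.55 CPM (5.08 and 6.02). Just outside stood Slc16a13 at 4.62 CPM (4.05 and 5.18), Slc27a3 at 4.35 CPM (3.999 and 4.71) and Slc25a35 at 4.33 CPM (4.58 and 4.09). Slc27a1 exceeded 5 CPM only in the tibia mean and Slc25a27 only in the femur mean.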

How the data were processed

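The deposited table holds raw read counts per gene and library, in whole numbers, made by the authors from sorted macrophages of MSC-treated tibias and untreated femurs. The submitters' processing notes name the build mm10 and, among tools, HISAT2 and DESeq2 besides featureCounts of Subread and bcl2fastq. Versions, settings and whether strand was used were not given in the sources used here. Genes that overlap on opposite strands therefore cannot be told apart; 8 members share over 5% of their exon length with another gene of the table, none of them among the 12 called. Among counts from 1 to 10, 69.8% were even, as when each end of a pair counts separately. Per the labels, libraries were grouped by bone and mouse.

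Members were taken from the whole table, with CPM from column totals for the threshold and CPM with TMM library sizes (factors 0.990 to 1.01) elsewhere. The fit used edgeR 4.0.16 in R 4.3.3 (quasi-likelihood, two-sided) on genes kept by filterByExpr with a minimum count of 10 over 4 groups, with the mouse as a term, or with 4 group means for changes within mice and their difference. Benjamini-Hochberg adjustment ran over all 11806 tested genes, and a gene was called under 0.05. The scripts were tested on simulated data. DESeq2 1.42.0, other filters and scalings, halved counts, summed counts, a replicate block and leaving out libraries were alternatives; summed counts without each library were added after the data were seen. The mouse pairs the bones, since tibia and femur come from the same animal. Named are the called members, the leading member of each substrate group, the members whose change differed between mice and those next to the threshold, with neighbours in the same pathway. Values of 1 called member and of 2 genes of the related lists are not reported here. Substrate groups were assigned by family, with single members placed elsewhere or as not settled where their substrate is known to differ or is unclear. The members and lists were chosen with earlier results of these data known. Lengths and positions come from GENCODE vM21.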

Additional observations from a re-analysis of the deposited data

Results flagged for a closer look

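In 7 members the change between tibia and femur differed between the mice by the test of the difference itself (edgeR, adjusted over all tested genes). The log2 difference, mouse 19 minus mouse 7, was 0.67 for Slc7a8, 0.61 for Slc44a1, 0.53 for Slc28a2, 0.46 for Slc37a3, 0.31 for Slc15a3, -0.40 for Slc25a10 and -0.51 for Slc7a1. With 2 animals, a difference between mice is a difference between these animals.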

How the results depend on the processing

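The 9 higher and 3 lower members became 2 and 0 on counts summed per mouse and bone, and 3 and 0 with the mouse left out of the model. The 1 member lower within mouse 19 became 2 under DESeq2 and 2 with no filter on low counts. None of the called changes turned its direction under the alternatives run for it; changes that were not called were not followed. Without 1 library (named by bone, mouse and library number), the counts ranged over 6 to 10 members higher and 2 to 4 lower over both mice, 6 to 10 higher and 0 to 2 lower in mouse 19, 4 to 9 higher and 2 to 5 lower in mouse 7, and 3 to 7 for the difference between the mice; on summed counts they were 0 to 4 higher and 0 lower, with 0 higher without tibia 7-3, tibia 19-2 or femur 7-2.

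Higher members in mouse 7 numbered 5 without its tibia library 2 or 3 or femur library 2, and 4 without its femur library 1. Lower members there numbered 3 without tibia library 1 and 2 without tibia library 2 or 3 or femur library 1. The lower count in mouse 19 was 0 without its tibia library 1 or 2 or femur library 2 or 3, and 2 without its femur library 1. The difference gave 4 without tibia 7-2 and 3 without femur 7-1 or femur 19-3. The cause was not tested.

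Deviations of libraries with the same number correlated between -0.0474 and 0.0006, so the numbers pair nothing. With the number as a replicate block, 6 members were higher and 2 lower over both mice, 9 and 1 in mouse 19, 8 and 5 in mouse 7, and 5 differed between the mice. Each library holds 81517 to 126886 member counts, and the lowest count of a member in a library was 25.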
